A study of Mus musculus with 32 samples.

Results

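The enzymes that lengthen and desaturate fatty acids were examined over a day in iBAT, the interscapular depot of brown fat, whose cells burn lipid to make heat. The group held 9 genes, taken by symbol from the 50686 genes of the count table, and all 9 passed the filter on low counts that kept 15505 genes. They were the elongases Elovl1, Elovl3, Elovl4 and Elovl5, the elongation-cycle reductases Hsd17b12 and Tecr, and the desaturases Fads1, Fads2 and Fads3.

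The mice were non-fasted C57BL/6J males of 10 weeks, fed chow and kept at 22 °C, a mild cold, under a 12 h light and 12 h dark cycle. Zeitgeber time (ZT) counts the hours from lights on, so that the dark phase starts at ZT12. RNA-sequencing covered 8 time points 3 h apart, from ZT0 to ZT21, each with 4 mice and with a library from every mouse. All groups shared strain, sex, age, diet and temperature, so mild cold has no comparison group here, and the tissue is a whole fat pad in which fewer cells of a type and less RNA per cell cannot be told apart.

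Chain elongation takes place in the endoplasmic reticulum as a cycle of 4 reactions on acyl-CoA. An ELOVL enzyme condenses the chain with malonyl-CoA, the ketoacyl reductase encoded by Hsd17b12 and a HACD dehydratase follow, and the enoyl reductase encoded by Tecr closes the cycle. The ELOVL enzymes differ in the chains they accept: ELOVL5 acts mainly on polyunsaturated chains, and ELOVL1, ELOVL3 and ELOVL4 on saturated and monounsaturated or very long ones. FADS1 and FADS2 introduce the double bonds of long polyunsaturated fatty acids, and FADS3 desaturates the sphingoid base of sphingolipids. Elovl3 is known in brown fat as a gene induced by cold.

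Coordinates are those of GRCm38. Elovl1 (ENSMUSG00000006390) lies on chromosome 4 from 118428093 to 118432953, Elovl3 (ENSMUSG00000038754) on chromosome 19 from 46131897 to 46135694, and Elovl5 (ENSMUSG00000032349) on chromosome 9 from 77917364 to 77984519, all on the plus strand. Elovl4 (ENSMUSG00000032262) lies on chromosome 9 from 83778692 to 83806277, Hsd17b12 (ENSMUSG00000027195) on chromosome 2 from 94032689 to 94157964, and Tecr (ENSMUSG00000031708) on chromosome 8 from 83571698 to 83607971, all on the minus strand. The desaturases stand next to one another on chromosome 19, with Fads3 (ENSMUSG00000024664) from 10041569 to 10060110 on the plus strand, Fads2 (ENSMUSG00000024665) from 10062765 to 10101746 on the minus strand, and Fads1 (ENSMUSG00000010663) from 10182888 to 10196877 on the plus strand. All 9 are protein-coding. Of the exonic bases of Elovl1, 53 of 2726 also lie in exons of Cdc20 on the other strand, and 10 of 1975 bases of Elovl3 lie in exons of Pitx3 on the other strand. The libraries were stranded, but the strand setting of the counting is not given in the sources used here. Over all libraries Cdc20 held 261 counts against 7173 of Elovl1, and Pitx3 held 95 against 11040 of Elovl3.

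The bases before the start of transcription are shown for Elovl5, Hsd17b12 and Tecr, which moved together among mice, and for Fads3, which over all libraries did not move with them past the threshold. RefSeq windows (GRCm38.p6) matched 7 of the 9 genes by symbol. The bases printed are those of the 250 before each start that lie outside annotated exons. Capitals mark an E-box (CACGTG, the letters bound by CLOCK and BMAL1) or a CCAAT box (CCAAT, or ATTGG on the other strand), and each sequence runs 5′ to 3′ along its gene.
Elovl5, chr9:77917115-77917363, plus strand: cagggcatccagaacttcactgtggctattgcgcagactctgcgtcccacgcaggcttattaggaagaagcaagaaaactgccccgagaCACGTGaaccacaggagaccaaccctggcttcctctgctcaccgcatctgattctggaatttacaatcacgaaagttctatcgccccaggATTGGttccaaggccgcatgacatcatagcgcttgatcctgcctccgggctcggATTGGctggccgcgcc
Hsd17b12, chr2:94157965-94158159, minus strand: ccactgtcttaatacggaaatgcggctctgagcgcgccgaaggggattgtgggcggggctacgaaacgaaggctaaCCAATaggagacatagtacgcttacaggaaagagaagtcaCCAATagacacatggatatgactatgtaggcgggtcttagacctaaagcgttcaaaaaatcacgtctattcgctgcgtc
Tecr, chr8:83594492-83594741, minus strand: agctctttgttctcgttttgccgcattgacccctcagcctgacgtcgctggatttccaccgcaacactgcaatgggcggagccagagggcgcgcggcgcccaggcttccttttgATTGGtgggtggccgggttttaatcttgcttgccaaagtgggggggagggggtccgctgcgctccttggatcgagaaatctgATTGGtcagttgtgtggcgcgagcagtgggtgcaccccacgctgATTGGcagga
Fads3, chr19:10041298-10041547, plus strand: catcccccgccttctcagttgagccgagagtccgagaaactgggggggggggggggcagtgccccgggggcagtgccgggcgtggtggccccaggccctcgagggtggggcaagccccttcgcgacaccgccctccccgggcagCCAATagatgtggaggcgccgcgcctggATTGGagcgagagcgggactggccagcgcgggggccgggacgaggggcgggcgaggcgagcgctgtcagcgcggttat

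The E-box stood 161 to 156 bases before the start of Elovl5, and these letters were in 6.02% of the 32851 windows of 250 bases in the same table. Of the 7 genes with a window, Elovl5 was the one that held them. CCAAT letters were in the windows of Elovl1, Elovl5, Fads3, Hsd17b12 and Tecr, with 3 matches in Tecr and 2 each in Elovl5, Fads3 and Hsd17b12, and in 33.9% of all windows. No window of the group held a D-box (TTANGTAA, in 2.06% of all windows), a ROR element (TAGGTCA, 2.23%), a sterol regulatory element (TCACNCCAC, 1.05%) or a cAMP element (TGACGTCA, 1.55%), searched on both strands.

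Levels were read in CPM, the counts of a gene scaled to a common library total with TMM factors, and between genes they were compared per kilobase of exon. On this scale Hsd17b12 was the highest, with a mean of 112 CPM per kilobase over the 32 libraries, followed by Tecr with 91.6 and Elovl5 with 47.0. Elovl3 followed with 10.2 CPM per kilobase, Fads3 with 7.07, Elovl1 with 4.72, Fads1 with 4.47 and Fads2 with 2.43. Elovl4, which makes very long chains in skin, retina and brain, was last with 0.172 CPM per kilobase and held 1 to 17 counts in a library. The 2 reductases, which serve every elongase, thus had a higher level per kilobase than any elongase in the group. Outside the group, the elongase Elovl6 had a mean of 848 CPM, against 270 CPM for Hsd17b12 and 201 CPM for Tecr, not scaled by length.

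The libraries held 16300770 to 18254659 counts, so that 3 counts, the limit that a count of 0 allows, were worth between 0.164 and 0.184 CPM (counting error only). Brown adipocyte markers were present in all libraries (8 of 8 genes, summed level 9482 to 15207 CPM), and the white adipocyte markers Hoxc9 and Hoxc10 were at 0 in 27 and 29 of the 32 libraries. Of the same list Lep (mean 103 CPM, 16.2 to 275) and Retn (mean 41.9 CPM, 17.1 to 84.4) were present in every library. Skeletal muscle markers (11 of 11 genes) varied between 4.01 and 7528 CPM in sum, with 15 libraries over 1000 CPM. The lane number in the library names was 2 for ZT0, ZT3 and ZT6, 3 for ZT9, ZT12 and ZT15, and 4 for ZT18 and ZT21, so that a time-of-day difference between lanes and a difference between the lanes cannot be told apart. The labels number the 4 libraries of a time point as replicates, and the p-values below measure the spread between them.

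Differences between time points were clearest in Elovl5. It was high late in the dark phase and at lights on, and low from the middle of the light phase to the early dark. At ZT0 the 4 libraries held 265, 244, 299 and 130 CPM of Elovl5, at ZT3 they held 162, 147, 197 and 162 CPM, and at ZT6 164, 169, 103 and 83.8 CPM. At ZT9 the values were 203, 139, 73.1 and 78.8 CPM, at ZT12 151, 101, 89.9 and 112 CPM, and at ZT15 80.0, 128, 122 and 136 CPM. At ZT18 they were 277, 230, 161 and 243 CPM and at ZT21 174, 232, 181 and 258 CPM. The 8 libraries of ZT18 and ZT21 were thus all above the 8 libraries of ZT12 and ZT15. ZT12 and ZT15 lie in a different lane from ZT18 and ZT21, and from ZT0, so time of day and lane cannot be told apart here. The share of all genes that separate in this way is not given. The library of ZT0 with 130 CPM lay within the range of ZT12, and the other libraries of ZT0 were above it.

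The mean of Elovl5 was 234 CPM ± 73.3 (SD, n = 4) at ZT0, fell to 113 CPM ± 26.7 at ZT12 and stood at 228 CPM ± 48.6 at ZT18. A 24 h cosine had a log2 amplitude of 0.57 (SE 0.10), 2.21-fold from trough to peak, and peaked at ZT22.1 (SE 0.701 h, edgeR adjusted p 3.32e-04). Ordered by mean, the times ran ZT0, ZT18, ZT21, ZT3, ZT6, ZT9, ZT15 and ZT12, and no 2 neighbours in that order differed past the threshold (edgeR adjusted p 0.518 to 0.970). Over all 9 genes, 0 of 63 such neighbours passed by edgeR, and 0 had an unadjusted p under 0.05. Of the 28 pairs of time points, 8 differed in Elovl5. They set ZT0 above ZT6, ZT9, ZT12 and ZT15, ZT18 above ZT6, ZT9 and ZT12, and ZT21 above ZT12.

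Tecr followed a flatter course with nearly the same timing. Its libraries held 229, 264, 306 and 193 CPM at ZT0 and 199, 169, 167 and 182 CPM at ZT12, so that 3 of the 4 libraries of ZT0 were above all those of ZT12. The cosine of Tecr had a log2 amplitude of 0.17 (SE 0.05) and peaked at ZT23.6 (SE 1.20 h, edgeR adjusted p 0.0284). ZT0 was higher than ZT9, ZT12 and ZT15 in Tecr (log2 differences of -0.46, -0.47 and -0.46 from ZT0, edgeR adjusted p 0.0217, 0.0233 and 0.0373), and the other 25 pairs did not pass.

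The cosine of Tecr did not pass without replicate 2 or 3 of ZT0 (edgeR adjusted p 0.0579 and 0.0824), with no filter on low counts (0.0504) or without libraries over 1000 CPM of muscle markers (0.0616, chosen after seeing the data). With all libraries Elovl5 and Tecr were 2 of the 9 genes with a 24 h cosine, against 36.1% of all 15505 genes tested. By JTK_CYCLE, the rank test of the study (P under 0.05), Elovl5 alone oscillated (exact P = 2.49e-04, corrected for the templates of a gene), against 36.9% of all genes, or 27.5% after Benjamini-Hochberg (BH) adjustment, which Elovl5 also passed. Tecr had an exact JTK P of 0.0691, a value that other settings moved to either side of the threshold. Elovl5 was again the 1 gene of 9 that differed between any of the 8 time points (edgeR adjusted p 0.00464), against 39.8% of all genes. At least 1 pair of time points differed in 4 of the 9 genes (8 pairs in Elovl5, 3 in Tecr, 1 each in Elovl1 and Fads2), against 56.0% of all genes.

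The other 7 genes had no cosine past the threshold. Fads2 and Elovl4 came nearest, with amplitudes of 0.20 (SE 0.07) and 0.48 (SE 0.15) on the log2 scale and edgeR adjusted p of 0.0611 and 0.0709. Hsd17b12 had an amplitude of 0.18 (SE 0.07) and an edgeR adjusted p of 0.124. For Elovl3 the amplitude was 0.36 with an SE of 0.42, so that a cosine of that size could not be separated from the spread between mice (edgeR adjusted p 0.980). Fads1, Fads3 and Elovl1 gave edgeR adjusted p of 0.759, 0.166 and 0.260. Over the 32 libraries Hsd17b12 ran from 141 to 393 CPM, Fads1 from 11.6 to 30.4 CPM, Fads3 from 8.34 to 46.4 CPM and Elovl1 from 10.2 to 16.8 CPM. The median amplitude over the 9 genes was 0.20 and over all tested genes 0.14, both on the log2 scale.

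The pair that differed in Fads2, which carries out the first step in making long polyunsaturated chains, was ZT12 against ZT3. Its libraries held 10.0, 11.2, 9.63 and 10.9 CPM at ZT3 and 4.98, 6.22, 8.07 and 7.78 CPM at ZT12, and the groups did not overlap (log2 difference -0.62, SE 0.19, edgeR adjusted p 0.0341). In this pair 1676 of the 15505 tested genes passed, and the share of all genes without overlap was not computed. The times lie in different lanes.

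**Figure D1:**
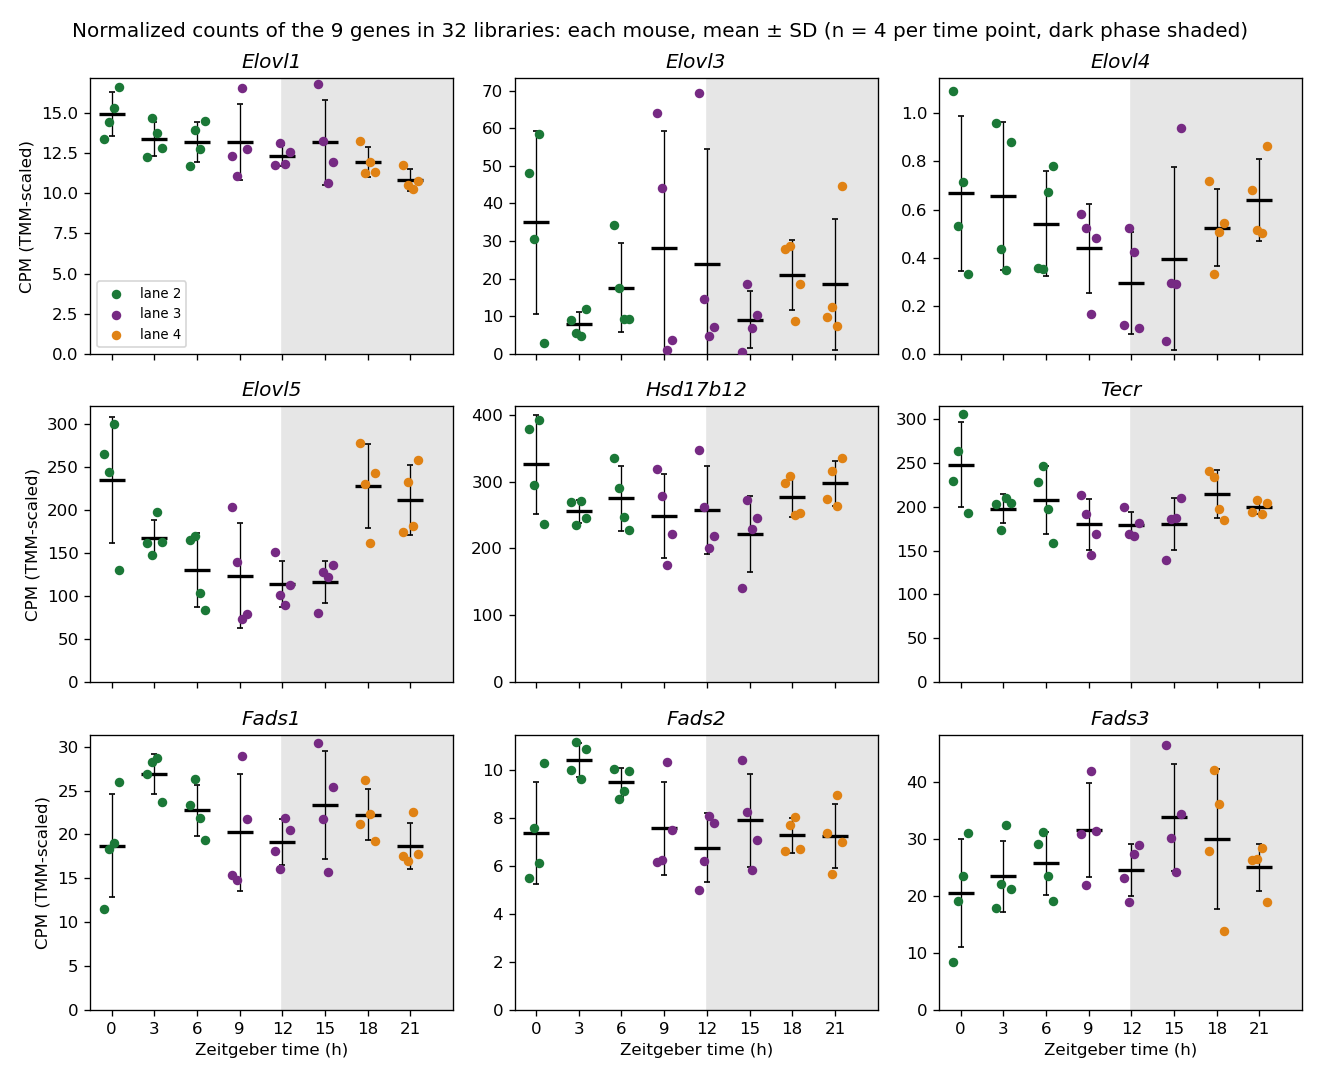
Normalized counts (CPM, TMM-scaled, vertical axis from 0) of the 9 genes against Zeitgeber time in hours, with a point for each mouse coloured by lane, a bar at the mean of 4 mice and whiskers of 1 SD, cut at 0. Elovl5 falls from a mean of 234 CPM at ZT0 to 113 CPM at ZT12 and stands at 228 CPM at ZT18, while the points of Elovl3 spread from 0.420 to 69.4 CPM with no shared course.

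The onset of dark was compared with the onset of light. Elovl5 was lower at ZT12 than at ZT0 by a log2 fold change of -1.05 (SE 0.28, edgeR adjusted p 0.0124), and Tecr by -0.47 (SE 0.14, edgeR adjusted p 0.0233). The call of Tecr was lost in the fit of these 8 libraries alone (edgeR adjusted p 0.0677) and without replicate 2 or 3 of ZT0 or of ZT12 (0.0583, 0.112, 0.0607 and 0.0692). With all libraries these were 2 of 9 genes against 15.9% of all tested genes in either direction and 8.15% in theirs. Hsd17b12 had a log2 fold change of -0.34 (SE 0.19), Elovl4 of -1.16 (SE 0.56), Elovl3 of -0.54 (SE 0.93) and Elovl1 of -0.28 (SE 0.12), none of them past the threshold (edgeR adjusted p 0.106 to 0.740). The desaturases had values near or on both sides of 0, with -0.13 (SE 0.19) in Fads2, 0.03 (SE 0.21) in Fads1 and 0.26 (SE 0.31) in Fads3. The summed endothelial markers (4 of 4 genes) were also lower, at 711 to 892 CPM at ZT0 and 578 to 634 CPM at ZT12 with no overlap. The sums overlapped for leukocyte markers (8 of 8 genes, 42.4 to 68.9 CPM at ZT0 and 60.5 to 93.5 at ZT12), red blood cell markers (5 of 5, 471 to 855 and 413 to 584) and Schwann cell and nerve markers (4 of 4, 51.7 to 61.7 and 49.8 to 169). The part of these cell types in the result was not tested.

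**Figure D2:**
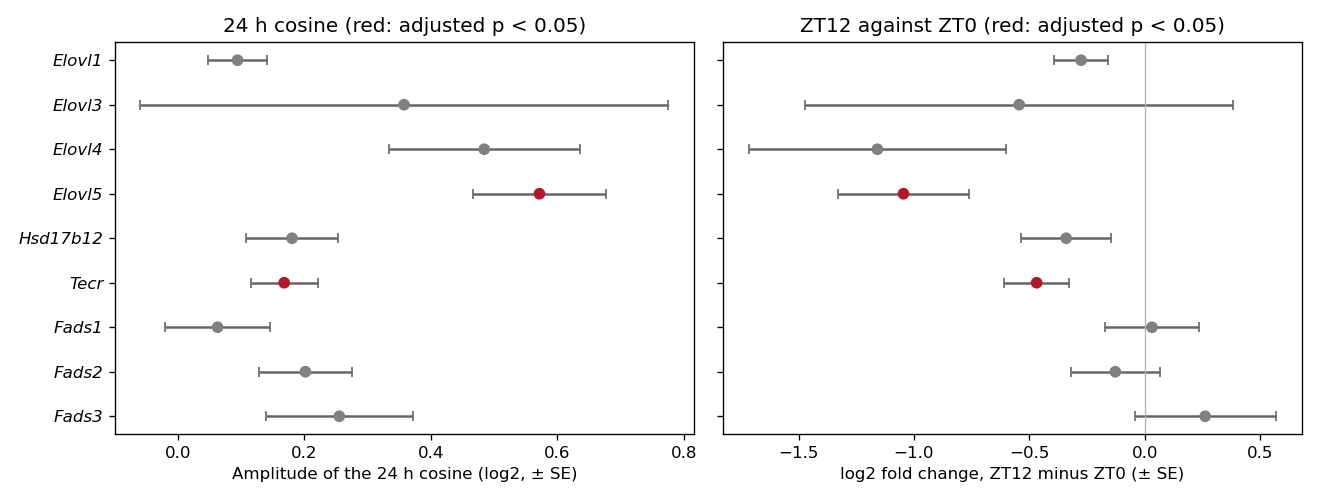
Left, amplitude of the fitted 24 h cosine on the log2 scale, and right, log2 fold change of ZT12 minus ZT0, for each of the 9 genes, with points in red where the edgeR adjusted p was under 0.05 and whiskers of 1 SE over 32 libraries. Elovl5 (0.57 and -1.05) and Tecr (0.17 and -0.47) are the red points, and the whiskers of Elovl3 are the longest in both panels.

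Between successive time points, 1 of 72 steps passed. Elovl1, which makes saturated very long chains for sphingolipids, held 11.8, 10.5, 10.2 and 10.8 CPM at ZT21 and 13.3, 14.5, 15.3 and 16.6 CPM at ZT0. The 4 mice of ZT0 were all above those of ZT21 (log2 difference 0.47, SE 0.12, edgeR adjusted p 0.0140), in a step that 7.72% of all genes passed and 3.50% passed upwards. Across the other steps in the order of the day, from ZT3 against ZT0 to ZT21 against ZT18, the share of all genes past the threshold was 13.8%, 2.08%, 1.95%, 0.00%, 3.04%, 1.17% and 2.06%. The 0.00% belonged to ZT12 against ZT9, where edgeR gave 0 genes past the adjusted threshold and 1047 at an unadjusted p under 0.05. Lanes differ between ZT21 and ZT0. With library size alone as the scaling, the edgeR adjusted p of Elovl1 in this step was 0.0664.

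In edgeR fits of each lane alone, across its time points, no gene of the group passed. In lane 2 the count was 0 of 9 against 13.3% of all genes, with 4 of 9 at an unadjusted p under 0.05 (Elovl3, Elovl5, Fads1 and Fads2). In lane 3 it was 0 of the 8 tested against 1.93%, and in lane 4 it was 0 of 9 against 4.48%, with 0 genes at an unadjusted p under 0.05 in either. With lane as a factor beside the cosine, 0 of 9 passed, against 17.2% of all genes, and 0 had an unadjusted p under 0.05 (edgeR adjusted p 0.228 in Elovl5 and 0.560 in Tecr). In the fit of all libraries, 1 of the pairs of time points that passed lay within a lane, Elovl5 at ZT6 against ZT0 in lane 2 (log2 difference -0.85, SE 0.28, edgeR adjusted p 0.0380, in a pair that 2679 of all genes passed), where 1 of the 4 libraries of ZT0 lay within the range of ZT6. In the fit of lane 2 alone the edgeR adjusted p of Elovl5 was 0.0914. The other pairs that passed, those of Tecr among them, lay across lanes, where time of day and lane cannot be told apart. Without replicate 4 of ZT0, left out in turn like every other library, lane 2 gave 4 genes (Elovl3, Elovl5, Fads1 and Fads2, edgeR adjusted p 0.00866, 0.0145, 0.0214 and 0.00731), against 22.1% of all genes in that fit.

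Mice of the same time point differed far more in Elovl3 than in the rest of the group. At ZT0 the libraries held 48.2, 30.5, 58.4 and 2.95 CPM of Elovl3, at ZT9 64.1, 44.1, 0.941 and 3.81 CPM, and at ZT12 69.4, 14.7, 4.86 and 7.12 CPM. At ZT15 they held 0.420, 18.7, 6.88 and 10.4 CPM, at ZT18 28.0, 28.8, 8.79 and 18.4 CPM, and at ZT21 9.91, 12.3, 7.46 and 44.5 CPM. The values of ZT3 were 8.94, 5.61, 4.76 and 12.0 CPM, and those of ZT6 were 34.4, 17.4, 9.20 and 9.36 CPM. The ratio of highest to lowest ran from 2.52 at ZT3, where all 4 mice held 12.0 CPM or less, to 68.1 at ZT9.

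Over all libraries Elovl3 ran from 8 to 1156 counts, a 165-fold range in CPM. Its SD within time points was 1.69 on the log2 scale, rank 137 of the 13449 tested genes with a mean of at least 1 CPM. The same SD was 0.65 for Elovl4, 0.43 for Elovl5, 0.48 for Fads3, 0.31 for Fads1, 0.29 for Hsd17b12, 0.27 for Fads2, 0.21 for Tecr and 0.16 for Elovl1, with a median of 0.20 over all tested genes. Differences between time points, which include any between lanes, made up 16.8% of the variance of log2 CPM in Elovl3 and 57.3% in Elovl5. With 8 time points of 4 mice, 22.6% would be expected where no time point differs.

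The 3 libraries lowest in Elovl3 were also low in Hsd17b12, Elovl5 and Tecr and high in Elovl1 and the desaturases. They were replicate 1 of ZT15, replicate 3 of ZT9 and replicate 4 of ZT0, and held 141, 174 and 236 CPM of Hsd17b12 and 80.0, 73.1 and 130 CPM of Elovl5, each the lowest of its time point. Of Fads1 they held 30.4, 28.9 and 25.9 CPM, of Fads2 10.4, 10.3 and 10.3 CPM and of Elovl1 16.8, 16.6 and 16.6 CPM, each the highest of its time point. Fads3 was also highest in them, with 46.4, 41.9 and 31.1 CPM, and Tecr lowest, with 139, 145 and 193 CPM. Their summed skeletal muscle markers were 7528, 29.6 and 2934 CPM and their mitochondrially encoded share of counts was 26.7%, 28.2% and 24.4%, within a range of 18.5% to 28.2% over all libraries. Their summed brown adipocyte markers were 9482, 10750 and 11489 CPM, each the lowest of its time point. The part of brown adipocyte content in the relations below was not tested.

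Time-of-day results were recomputed without those 3 libraries, a choice made after their values were seen. Since they were the lowest in Elovl3 and 1 of them was a library of ZT0, higher means of Elovl3 and of the genes that moved with it at ZT0 can follow from that choice, and no direction is read from these counts. A 24 h cosine was then called in 3 of 9 genes (Elovl5, Tecr and Fads2), against 34.6% of all genes in the same fit. Any difference between time points was called in 5 of 9, against 46.8% of all genes, and a difference between ZT12 and ZT0 in 4 of 9, against 21.0%. Of the 72 steps 8 were called, 6 of them between ZT0 and ZT3, a step that 3952 genes in all passed without these libraries and 2134 with them.

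Relations between genes among mice of the same time point were tested as deviations of log2 CPM from the mean of the time point, with mice permuted within time points (100000 resamples, two-sided) over 45 relations, the 36 pairs of the 9 genes and each gene with Srebf1, which encodes the lipogenic factor SREBP-1. Of the 45, 30 passed after BH adjustment, 16 positive and 14 negative. As background with no test, 23.9% of the r between each of the 9 genes and all other tested genes were at or beyond 0.453 in size, the smallest that passed, from 8.50% for Fads3 to 36% for Elovl3, and 34 of the 45 relations were. With each library left out in turn 19 of the 30 passed throughout. The other 11 were Elovl1 with Elovl5, Hsd17b12, Tecr and each desaturase, Fads1 with Elovl3, Elovl4 and Hsd17b12, and Elovl3 with Fads3 and Srebf1. Leaving out replicate 3 of ZT9 ended 10 calls and replicate 1 of ZT15 ended 7. Past the threshold Elovl3 went with Elovl5, Hsd17b12, Tecr and Srebf1 and against Elovl1, Fads1, Fads2 and Fads3, and with Elovl4 it did not pass (r = 0.460, BH-adjusted permutation p 0.0643).

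Elovl3 and Hsd17b12 were the most closely related pair (r = 0.935, rho = 0.934, both with a permutation p of 1e-05, the smallest that the resamples can give, n = 32, BH-adjusted p 7.5e-05), and 28 of the 32 mice lay on the same side of their time-point means in both. Leaving out the 2 libraries farthest from the median gave r = 0.898, and the lanes 2, 3 and 4 taken singly gave 0.855, 0.977 and 0.857. Elovl3 with Elovl5 gave r = 0.864 and rho = 0.844 (permutation, BH-adjusted p 7.5e-05), 0.847 without 2 libraries and 0.823, 0.925 and 0.841 within lanes. Tecr was related to Elovl5 with r = 0.852 (rho = 0.854), to Hsd17b12 with 0.807 (rho = 0.793) and to Elovl3 with 0.757 (rho = 0.734), with BH-adjusted permutation p of 7.5e-05, 1.29e-04 and 1.69e-04. All 6 pairs among Elovl3, Elovl5, Hsd17b12 and Tecr were positive and past the threshold. Of all other tested genes, 3.90% had an r with Elovl3 at least as high as that of Tecr.

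The desaturases moved with one another, and over all libraries each went against Elovl3. Fads1 was related to Fads3 with r = 0.807 (rho = 0.824) and to Fads2 with r = 0.783 (rho = 0.673), and Fads2 to Fads3 with r = 0.564 (rho = 0.509), with BH-adjusted permutation p of 7.5e-05, 4.5e-04 and 0.00986. Fads2 went against Hsd17b12 (r = -0.784, rho = -0.701), Elovl3 (r = -0.752, rho = -0.639), Elovl5 (r = -0.721, rho = -0.687) and Tecr (r = -0.607, rho = -0.576), with BH-adjusted permutation p of 4.5e-04, 0.00170, 3.00e-04 and 0.00411. For Fads2 and Hsd17b12 r was -0.770, -0.852 and -0.495 within lanes 2, 3 and 4 and -0.694 without 2 libraries, and 27 of 32 mice lay on opposite sides. For Fads1 and Fads3 with Elovl3 r was -0.652 and -0.453 (BH-adjusted permutation p 0.0167 and 0.0322). Leaving out 1 library raised these adjusted p to as much as 0.0526 and 0.108, and without the 3 libraries lowest in Elovl3 r was -0.296 and -0.163 (0.372 and 0.493). Neither passed with Tecr (r = -0.252 and 0.046).

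Elovl1 moved with the desaturases (r = 0.598 with Fads1, 0.598 with Fads2 and 0.466 with Fads3) and against Elovl3 (r = -0.638), with BH-adjusted permutation p of 0.0167, 0.00986, 0.0190 and 0.00986. Without the 2 libraries farthest from the median the r were 0.363, 0.348, 0.35 and -0.317 (permutation p 0.120, 0.0980, 0.117 and 0.126), with the same signs. Leaving these libraries out narrows the range of Elovl1, which can itself lower r, so what the calls rested on cannot be read from it. Within lane 4 the r with Fads1, Fads2 and Elovl3 had the other sign (-0.355, -0.196 and 0.069). Elovl4, with its few counts, went against Fads1 and Fads3 (r = -0.550 and -0.578, BH-adjusted permutation p 0.0167 and 0.00222). Leaving out 1 library raised these adjusted p to as much as 0.0640 and 0.00881, and without the 3 libraries lowest in Elovl3 r was -0.262 and -0.436 (0.382 and 0.0539).

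Leaving out the 3 libraries lowest in Elovl3 narrows the range of Elovl3 and of the genes that moved with or against it, which can itself lower r, so a relation that did not pass without them is not read as lost. Without them 14 of the 45 relations passed, 13 of them among the 30 (11 positive and 2 negative). The 6 pairs among Elovl3, Elovl5, Hsd17b12 and Tecr did, with r from 0.539 to 0.872, as did Fads1 with Fads3 (0.755) and Fads2 (0.587), and Fads2 against Elovl5 (-0.514) and Hsd17b12 (-0.593). Fads2 with Fads3 did not (r = 0.359, BH-adjusted permutation p 0.175). Fads2 with Elovl3 had r = -0.477 and a BH-adjusted permutation p of 0.108. Fads3 with Tecr passed there and not over all libraries (r = 0.547, BH-adjusted permutation p 0.0497).

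**Figure D3:**
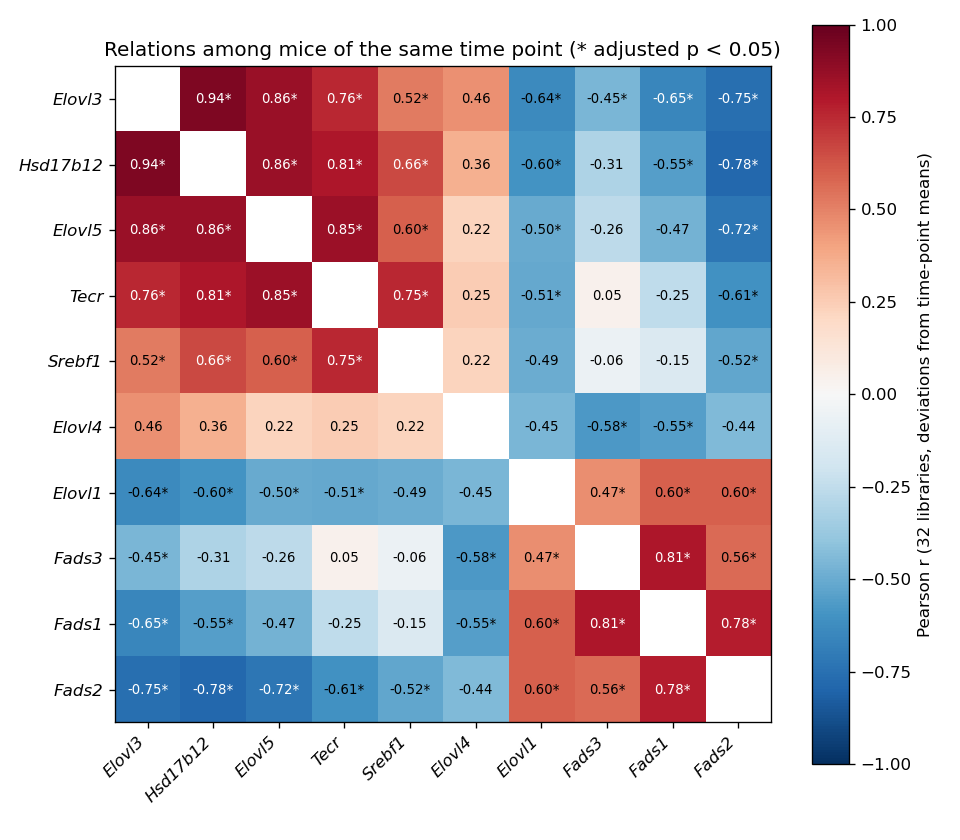
Pearson r between deviations of log2 CPM from the time-point means for the 9 genes and Srebf1 over 32 libraries, on a colour scale from -1 (blue) to 1 (red), with a star where the BH-adjusted permutation p over 45 relations was under 0.05. Elovl3, Hsd17b12, Elovl5, Tecr and Srebf1 form a red block at the upper left and the desaturases with Elovl1 one at the lower right, with r = 0.935 for Elovl3 and Hsd17b12 and -0.784 for Fads2 and Hsd17b12.

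**Figure D4:**
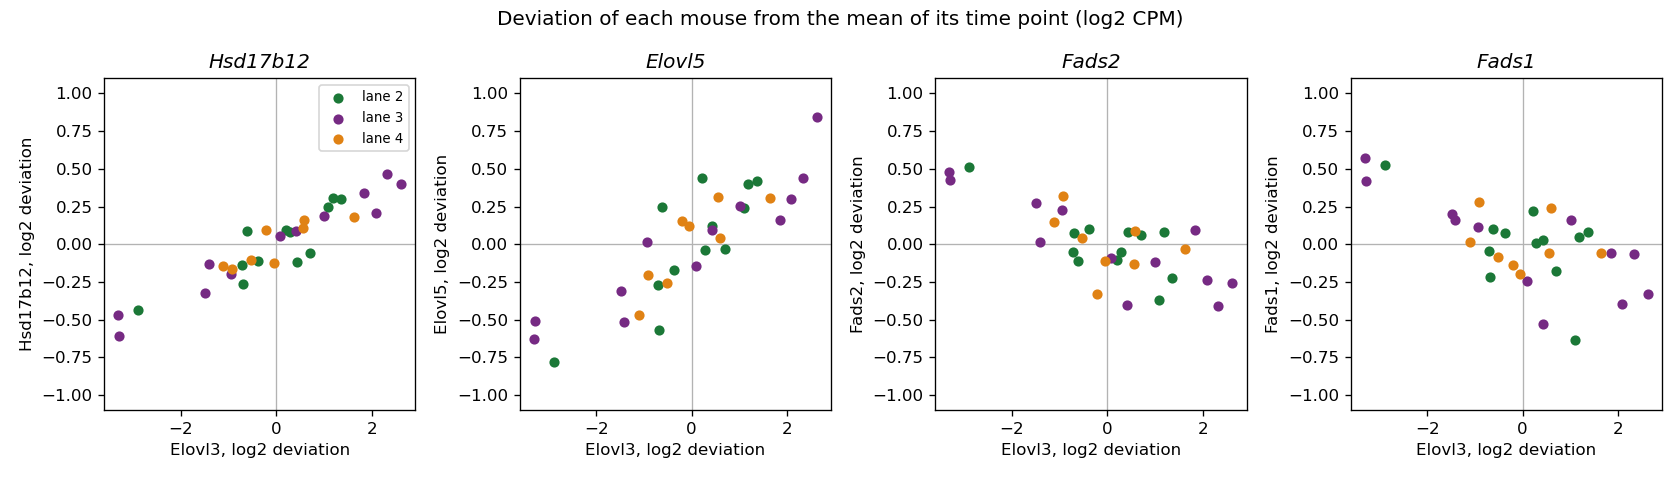
Deviation of each of 32 mice from the mean of its time point in log2 CPM, for Elovl3 on the horizontal axis and Hsd17b12, Elovl5, Fads2 and Fads1 on the vertical axes, coloured by lane. Points rise to the right for Hsd17b12 (r = 0.935) and Elovl5 (0.864) and fall for Fads2 (-0.752) and Fads1 (-0.652), and the 3 points at the far left are the libraries with 0.420, 0.941 and 2.95 CPM of Elovl3.

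Srebf1 moved with the same elongation genes. It was related to Tecr with r = 0.750 (rho = 0.703), to Hsd17b12 with 0.660 (rho = 0.609), to Elovl5 with 0.599 (rho = 0.628) and to Elovl3 with 0.523 (rho = 0.474), and negatively to Fads2 (r = -0.516, rho = -0.489), with BH-adjusted permutation p of 7.5e-05, 0.00174, 3.60e-04, 0.00986 and 0.00986. For Srebf1 and Tecr r was 0.819, 0.710 and 0.795 within lanes 2, 3 and 4 and 0.608 without 2 libraries. Without the 3 libraries lowest in Elovl3 the relations with Tecr, Elovl5 and Hsd17b12 passed (0.761, 0.606 and 0.543), and those with Elovl3 and Fads2 did not (0.326 and -0.393). The adjusted p of Srebf1 with Elovl3 reached 0.0724 when 1 library was left out. Fads1 had r = -0.148 with Srebf1.

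Skeletal muscle markers and the mitochondrial share were set against the same deviations (18 relations, added after seeing the data). No gene of the group passed with the summed muscle markers over all libraries (r from -0.223 to 0.213, BH-adjusted permutation p 0.521 to 0.646). Within the 8 libraries of lane 4, r with these markers was -0.953 for Hsd17b12, -0.939 for Tecr, -0.772 for Elovl3 and -0.676 for Elovl5, and within lane 2 it was 0.693 for Fads1, values that were not tested. Over all libraries, with these markers as a covariate 30 of the 45 relations passed as before. In the 16 libraries that remain without those over 1000 CPM and without the 1 left at ZT15, r was 0.866 for Elovl3 and Hsd17b12 and -0.754 for Fads2 and Hsd17b12, with BH-adjusted permutation p of 0.203 and 0.429. In these libraries 1 of the 45 relations passed, Elovl4 against Fads3 (r = -0.944, BH-adjusted permutation p 0.0383). With 2 or 3 libraries left at a time point, few arrangements of the mice exist, so that the permutation p cannot become small. A relation that did not pass in these libraries is therefore not read as lost. The mitochondrial share was lower in mice high in Tecr (r = -0.821, rho = -0.824), Elovl5 (r = -0.788, rho = -0.762), Elovl3 (r = -0.670, rho = -0.610) and Hsd17b12 (r = -0.667, rho = -0.646), with BH-adjusted permutation p of 9e-04, 0.00207, 0.0151 and 0.00864. Within lanes 2, 3 and 4 the value for Tecr was -0.785, -0.870 and -0.838, and without 2 libraries it was -0.733. The part of the mitochondrial share in the relations above was not tested.

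Ratios between members, which do not depend on the scaling between libraries, were compared between time points (permutation of the time labels, 100000 resamples of the F statistic, 10 ratios). None of 10 passed after BH adjustment and 3 had an unadjusted p under 0.05. Fads1 to Fads3 ran from a mean log2 ratio of 0.23 ± 0.32 (SD, n = 4) at ZT3 to -0.65 ± 0.23 at ZT9 (permutation p 0.00801, BH-adjusted 0.058). Elovl1 to Elovl5 ran from -3.10 ± 0.88 at ZT9 to -4.25 ± 0.32 at ZT21 (permutation p 0.0116, BH-adjusted 0.058), and Fads2 to Fads3 from -1.13 ± 0.41 at ZT3 to -2.07 ± 0.17 at ZT15 (permutation p 0.0179, BH-adjusted 0.0598). Hsd17b12 to Tecr stayed between 0.02 and 0.80 on the log2 scale in all 32 libraries.

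Of 19 other enzymes of elongation and desaturation, 16 were tested and 6 had a cosine past the threshold, against 36.1% of all genes, 1 with its peak in the light and 5 in the dark, and 2 passed beside lane, against 17.2% of all genes. Scd2, a stearoyl-CoA desaturase, ran from 204 CPM ± 58.4 (SD, n = 4) at ZT9 to 992 CPM ± 380 at ZT18, with a log2 amplitude of 0.99 (SE 0.17), a peak at ZT21.6 (SE 0.665 h) and an edgeR adjusted p of 5.05e-04 (0.0454 beside lane). Pecr, a peroxisomal enoyl reductase, peaked at ZT14.7 (SE 0.629 h, log2 amplitude 0.25, SE 0.04, edgeR adjusted p 8.51e-05, 0.0427 beside lane). Hacd4, a dehydratase of the cycle, peaked at ZT8.2, the electron carriers Cyb5a and Cyb5b at ZT14.1 and ZT23.0, and Scd4 at ZT21.9 (edgeR adjusted p 0.00439, 3.11e-04, 0.0149 and 0.0177). Elovl2, Tecrl and Degs2, with 59, 12 and 130 counts in all, were not tested.

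Among mice of the same time point, Elovl3 was related past the threshold to 9 of these 16 enzymes, 7 positively and 2 negatively, and Fads1 to 5, 3 positively and 2 negatively (32 relations, BH-adjusted permutation p, added after seeing the data). At the r of the least close of these enzymes, 15.3% of all other tested genes stood as high with Elovl3 and 5.46% as low, and with Fads1 3.96% and 6.17%, given as a description with no test. Elovl6, the elongase of palmitate, gave r = 0.876 (rho = 0.871) with Elovl3, Cyb5b gave 0.881 (rho = 0.890) and the dehydratase gene Hacd2 0.871 (rho = 0.841), each with a BH-adjusted permutation p of 1.07e-04. Without 2 libraries these were 0.789, 0.827 and 0.883, and within lanes 2, 3 and 4 Elovl6 gave 0.716, 0.978 and 0.789. The stearoyl-CoA desaturase gene Scd1 rose with Elovl3 (r = 0.730, rho = 0.746, BH-adjusted permutation p 1.92e-04), on the side opposite to Fads1 and Fads2. Hacd4 went with Fads1 (r = 0.704, rho = 0.551) and against Elovl3 (r = -0.653, rho = -0.463), with BH-adjusted permutation p of 0.00432 and 0.0165, and Hacd2 against Fads1 (r = -0.641, rho = -0.541, BH-adjusted permutation p 0.0230).

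Of 18 genes of acyl-CoA activation and use, all 18 were tested and 7 had a cosine, 5 with the peak in the light, and 3 beside lane, with the same shares of all genes (36.1% and 17.2%) as background here and for the regulators. The acyl-CoA synthetase gene Acsl5 peaked at ZT23.1 (SE 1.12 h, edgeR adjusted p 0.0205), while Acsl1 peaked at ZT8.56 (SE 0.657 h, edgeR adjusted p 6.40e-05). The fatty acid transporters Slc27a1 and Slc27a2 peaked at ZT7.9 and ZT7.4, the ceramide synthase gene Cers4 at ZT5.9 and Acsl4 at ZT22.5 (edgeR adjusted p 6.72e-07, 1.25e-07, 0.0349 and 0.0116). Of 16 regulators 8 had a cosine, 4 with the peak in the light, and 7 passed beside lane, among them Ppargc1a, which had no cosine without it (edgeR adjusted p 0.0218 and 0.0985). Srebf1 peaked at ZT15.3 (SE 0.999 h, edgeR adjusted p 0.00440, 0.0118 beside lane), from 374 CPM ± 107 at ZT6 to 776 CPM ± 288 at ZT15 (SD, n = 4 each). Mlxipl peaked at ZT20.6, Insig1 at ZT19.7, Srebf2 at ZT23.4, Nr1h2 at ZT6.1, Cebpa at ZT6.6, Ppara at ZT8.6 and the clock gene Nr1d1 at ZT7.2 (edgeR adjusted p 0.00367, 0.00302, 0.0440, 0.00149, 0.00704, 0.0105 and 9.56e-15).

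The genes whose log2 CPM was most like that of a member over all 32 libraries were found by Pearson r among the 13449 genes with a mean of at least 1 CPM, with no test, and the libraries share time, lane and scaling. For Elovl5 they were Pmvk (r = 0.934), Sqle (0.916) and Nsdhl (0.916), all enzymes of cholesterol synthesis. For Tecr they included Slc25a1 (0.919) and Nsdhl (0.915), and for Hsd17b12 they were Taldo1 (0.950), Pdhx (0.944) and Acsl5 (0.941). Elovl3 was nearest to Swi5 (0.928), Acsf2 (0.921) and 1700037H04Rik (0.920). The desaturases were nearest to other genes, Fads1 to Emp1 (0.808), Nid1 (0.806) and Mtss1l (0.803), Fads2 to Wipf1 (0.844), Sema5a (0.836) and Mtss1l (0.831), and Fads3 to Inhbb (0.790), Fgfrl1 (0.769) and Amotl2 (0.756). Elovl1 was nearest to Pea15a (0.756), Calhm2 (0.753) and 2610203C22Rik (0.738), and Elovl4, with its few counts, to Impa2 (0.676), Cdk17 (0.663) and Slc16a1 (0.661).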

How the data were processed

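Each of the 32 iBAT libraries came from 1 mouse. The authors aligned the reads to mm10 with GSNAP and counted them per Ensembl gene with HTSeq (0.6.1), and the deposited values are whole-number counts, not normalized. From these counts, genes were filtered with edgeR (4.0.16, R 4.3.3) and scaled with TMM, and edgeR's quasi-likelihood test with Benjamini-Hochberg adjustment over all tested genes (threshold 0.05) gave every adjusted p named as edgeR's. Log2 values used a prior count of 2. JTK_CYCLE was reimplemented with templates of 21 and 24 h. Scripts were tested on simulated data. Alternatives covered scaling, filter, lane, DESeq2 (1.42.0), replicate block and each library left out. Depth was 16300770 to 18254659 counts, and 3 counts bound a 0. Replicates of a time point differed by more than sampling noise (lowest mean chi-square per gene 7.37 over 48 pairs). The 9 genes were given by symbol and all are described, other genes were named where they passed a test in a list or were the nearest 3 by Pearson r. Values of 2 of these other genes are not reported here. Members and lists were chosen with earlier results of these data known.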

Additional observations from a re-analysis of the deposited data

Results flagged for a closer look

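In 3 of the 72 groups of 4 mice, 1 library stood apart from the other 3 by Dixon's test at the 95% level, which chance gives in about 1 of 20 groups. Elovl3 held 69.4 CPM in replicate 1 of ZT12, against 4.86 to 14.7 CPM in the other mice of that time. Elovl3 held 44.5 CPM in replicate 4 of ZT21, against 7.46 to 12.3 CPM. Fads1 held 22.6 CPM in replicate 3 of ZT21, against 16.9 to 17.8 CPM.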

How the results depend on the processing

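Scaling by library size alone gave 2 genes that differed between any time points (35.1% of all genes), 2 by JTK (35.1%) and 0 steps, and it moved the median gene of a library by -0.11 to 0.12 on the log2 scale. With no filter on low counts 1 gene had a cosine (15.7% of 30586 genes), with lane as a factor 0, and the fit of the 8 libraries of ZT0 and ZT12 gave 1 gene, Elovl5 (edgeR adjusted p 0.0336), against 8.74% of all genes. The 24 h template alone gave 2 genes by JTK (37.2% of all genes). The exact JTK P of Tecr was 0.0491 with library size alone and with the replicate block, 0.0369 with the 24 h template and, chosen after seeing the data, 0.00346 without libraries over 1000 CPM of muscle markers, against 0.0772 with DESeq2's size factors or without mitochondrially encoded genes and 0.0691 with no filter. DESeq2's likelihood ratio test gave 4 genes that differed between time points (45.2% of all genes, against 39.8% by edgeR). Of the 45 relations, 17 passed without the 2 libraries farthest from the median, and 9, 14 and 0 within lanes 2, 3 and 4. In the 8 libraries of lane 4 the smallest permutation p possible, 0.00174, does not pass alone over 45 relations, so that 0 is not comparable with the other lanes. Of its relations past the threshold over all libraries, Elovl1 in lane 4 changed sign with Elovl3 (0.069), Elovl5 (0.050), Fads1 (-0.355), Fads2 (-0.196), Hsd17b12 (0.075) and Tecr (0.348). Of those not past it, Elovl1 changed sign with Elovl4 (0.667) and Srebf1 (0.174).

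Chosen after seeing the data, leaving out libraries over 1000 CPM of muscle markers gave 1 gene with a cosine (17.8% of all genes), 2 by JTK (21.4%) and 1 relation, where few arrangements of the mice were left to permute. Also chosen after seeing the data, leaving out the 3 libraries lowest in Elovl3 gave 5 genes that differed between time points, 4 between ZT12 and ZT0, 8 steps and 14 relations, with 3952 genes in all called in the step from ZT0 to ZT3 against 2134 with all libraries. With each library left out in turn, 1 to 4 genes had a cosine, 1 to 3 differed between time points, 1 to 2 between ZT12 and ZT0, 1 to 3 passed JTK and 0 to 4 differed within a lane, with 1 to 4 steps, 20 to 33 relations and 0 to 3 ratios. Without replicate 1 of ZT15, 4 genes had a cosine (38.3% of all genes), and without replicate 4 of ZT0, 4 steps passed.

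Replicate numbers did not pair the libraries (median r -0.145 over 112 pairs with the same number, 50 of them over 0.1, and 4 of 32 libraries closest to their own number). The replicate block gave 2 genes by JTK (40% of all genes) and 3 ratios and left the other counts within 1.5 times their value. The causes of these changes were not tested. Depth limits Elovl4, with at most 17 counts in a library.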
